A study of Arabidopsis thaliana with 8 samples.

Results

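The genes described here are those whose promoter held a nucleosome after a low digest with micrococcal nuclease (MNase) in dexamethasone (dex) treated tissue, while nothing was listed at that place in the list named high digest dex. Such a nucleosome is called low-only below. The promoter was taken as the stretch from -300 bp to the start of the gene. A low digest dex nucleosome belonged to it when its center lay in that window, and it was low-only when no base of it was overlapped by an interval of the list named high digest dex. Of 27444 protein-coding genes, 11838 (43.1%) had a low digest dex center in the promoter and 2412 had a low-only one. That is 8.79% of all protein-coding genes and 20.4% of those with a low digest dex center.

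The tissue was root explants of Arabidopsis thaliana, Landsberg erecta cultivar, taken from 3-week-old seedlings and kept for up to 5 days on callus-inducing medium. All groups carried 35S:LFY-GR, a transgene in which the broadly active 35S promoter drives the transcription factor LEAFY (LFY) joined to the steroid-binding part of the glucocorticoid receptor, so that the mock groups carried it too. The 4 groups were low digest with 1 h of dex, high digest with 1 h of dex, low digest with 1 h of mock solution and high digest with 1 h of mock solution. Each had 2 libraries, which the deposited tables give as 1 pooled list of 140 bp nucleosome intervals, so no spread between libraries can be given and no test was made. Intervals in brackets are Wilson 95% intervals and cover counting error only, and the depth of sequencing is unknown, so that a longer list and a deeper one cannot be told apart.

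A conflict in the labels bears on every value below. The list named high digest dex carries, in the name field of each line, the name of a low digest dex library (lowDex_MNase2), whereas the low digest dex list carries lowDex_MNase1_pooled. Its length is nearly the one that the study's methods give for high digest dex, whereas the low digest dex list is longer than the methods give. The gene count, the counts of some classes, the median GC content and the share listed in low digest mock are also given another way. There, the high digest mock list takes the place of the list named high digest dex. The counts of the other classes, position, flanking coverage, occupancy and motifs are given without that exchange. The lists were also not called alike: by the methods, the low digest dex libraries were merged ahead of the call, and in the other 3 conditions the call used the replicates. The part of this difference in the results was not tested. The list sizes on the 5 nuclear chromosomes were 242336 intervals for low digest dex, 376240 for the list named high digest dex, 316733 for low digest mock and 482098 for high digest mock. The occupancy values of the low digest dex list were whole multiples of 8 in 100% of lines and in 0% in the other 3 lists, so occupancy was used only as a percentile within the low digest dex list.

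MNase cuts the DNA between nucleosomes first and then trims and destroys the less protected ones. Nucleosomes seen after a gentle digest and lost after a harsher one are called fragile, and in plants, yeast and animals they have been described mainly in promoters, just upstream of the transcription start. LFY is a plant-specific factor that sets floral fate, and the LFY-GR fusion enters the nucleus once dex binds the receptor domain. Promoter nucleosomes of low stability are often found beside the nucleosome-depleted region where the transcription machinery assembles, and AT-rich DNA wraps less readily around histones and is also cut more readily by MNase.

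The sequences of 7 low-only nucleosomes and of 1 shared nucleosome show what kind of DNA is meant. They were read from the TAIR10.1 reference, which is the Columbia genome and not Landsberg erecta, are printed 5′ to 3′ on the strand of their gene, and all lie between annotated genes. Capitals mark matches, on either strand, to the core promoter element TATAAA, the G-box CACGTG, the telo-box AAACCCTA, the site II element GGCCCA, the repeat GAGAGA or the LFY core CCANTGG, in which N is any base. UBQ10, LOS1 and AT4G25020 are shown as nucleosomes of high occupancy that were low-only in both treatments, HK3 as a cytokinin receptor gene that was also low-only in both treatments, SYD, AXR3 and LFY as regulators, and AP1, the floral identity gene that LFY activates, as a nucleosome both digests shared.
UBQ10, chr4:2717692-2717831, + strand: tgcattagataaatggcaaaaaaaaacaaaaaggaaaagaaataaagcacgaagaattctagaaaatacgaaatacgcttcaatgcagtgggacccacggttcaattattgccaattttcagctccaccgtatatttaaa
LOS1, chr1:20971772-20971911, - strand: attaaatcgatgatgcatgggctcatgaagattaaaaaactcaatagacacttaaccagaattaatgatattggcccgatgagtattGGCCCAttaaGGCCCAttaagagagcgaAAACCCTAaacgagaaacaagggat
AT4G25020, chr4:12861982-12862121, - strand: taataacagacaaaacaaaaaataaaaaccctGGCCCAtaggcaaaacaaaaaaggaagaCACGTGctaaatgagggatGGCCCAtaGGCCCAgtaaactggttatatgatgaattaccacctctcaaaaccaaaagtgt
HK3, chr1:9486692-9486831, + strand: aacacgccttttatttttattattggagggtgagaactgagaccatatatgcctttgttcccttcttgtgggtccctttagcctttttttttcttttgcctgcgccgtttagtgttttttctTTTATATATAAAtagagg
SYD, chr2:12056052-12056191, + strand: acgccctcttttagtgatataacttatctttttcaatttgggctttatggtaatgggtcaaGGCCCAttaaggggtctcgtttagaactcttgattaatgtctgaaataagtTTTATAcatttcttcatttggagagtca
AXR3, chr1:1135712-1135851, + strand: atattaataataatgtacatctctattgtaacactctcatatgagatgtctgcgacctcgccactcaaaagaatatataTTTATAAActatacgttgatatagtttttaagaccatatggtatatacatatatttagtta
LFY, chr5:24843947-24844086, + strand: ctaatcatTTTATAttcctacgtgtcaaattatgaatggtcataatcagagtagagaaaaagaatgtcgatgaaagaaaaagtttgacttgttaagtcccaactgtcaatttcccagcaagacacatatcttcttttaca
AP1, chr1:25986442-25986581, - strand: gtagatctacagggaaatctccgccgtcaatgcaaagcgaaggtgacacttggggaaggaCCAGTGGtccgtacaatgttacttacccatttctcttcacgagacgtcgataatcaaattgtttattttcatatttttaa

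The GC content of these stretches was 33.6% for UBQ10, 38.6% for LOS1 and AT4G25020, 36.4% for HK3, 35% for SYD, 26.4% for AXR3 and 32.1% for LFY, against 41.4% for the shared nucleosome of AP1. The low-only stretch of UBQ10 held none of the 6 motifs and carried a run of 9 adenines, and that of HK3 carried a run of 9 thymines. LOS1 held 2 site II matches and a telo-box, and AT4G25020 held 3 site II matches and a G-box. The LFY core matched only in AP1 among the 8 sequences printed.

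The 2412 genes took a like share of each chromosome. They made up 8.65%, 8.73%, 9.16%, 9.07% and 8.48% of the protein-coding genes of chromosomes 1, 2, 3, 4 and 5, in that order. They held 2377 low-only nucleosomes, which were 17.7% (17.1 to 18.4%) of the 13429 low digest dex nucleosomes centered in promoters, and the other 11052 are called shared. Over the whole nuclear genome, 17098 of 242336 low digest dex nucleosomes, or 7.06%, had no overlapping interval in the list named high digest dex. A low-only nucleosome belonged to 1 gene in most cases and to 2 genes in 121 cases. Among the genes, 2326 had 1 such nucleosome and 86 had 2.

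In 1338 of the 2412 genes (55.5%, 53.5 to 57.4%) no base of the whole promoter window was covered in the list named high digest dex. In 452 genes (18.7%) another low digest dex nucleosome of the same promoter was shared, and in 176 (7.3%) the same promoter also held a nucleosome of the opposite kind, listed in the list named high digest dex with no overlap from low digest dex. That opposite kind, called high-only, was the more frequent one, with 4600 nucleosomes in 4315 genes, or 15.7% of protein-coding genes. Low digest dex is also the shorter list, with 242336 intervals against 376240. When the longer list was reduced to its highest occupancies at the length of the shorter one, the order turned, with 7597 low-only against 1446 high-only genes. The direction of this change was fixed, since shortening that list can only add low-only and remove high-only nucleosomes.

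The rule has an edge at 1 bp of overlap. Among low-only nucleosomes, 335 lay within 10 bp of an interval of the list named high digest dex, and 177 shared nucleosomes were overlapped by 1 to 10 bp only. The median distance of a low-only nucleosome to the nearest such interval was 70 bp (quartiles 30 and 150 bp), and 619 of them (26%) were more than 140 bp away, which is more than the length of an interval. SS3, which encodes a starch synthase, and AT1G30690, which encodes a Sec14-like lipid transfer protein, touched the neighboring interval at a distance of 0 bp. The SS3 nucleosome, at -294 bp, also overlapped another annotated gene. The nucleosomes of UBQ10 at -215 bp and -25 bp were 410 and 600 bp away from the nearest interval.

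Low-only nucleosomes sat closer to the gene start than the other kinds. Their median center was at -117 bp, against -137 bp for shared and -156 bp for high-only nucleosomes. From -300 to 0 bp in steps of 50 bp, 11.4%, 12.3%, 13.7%, 20.7%, 23% and 18.9% of low-only centers fell in each step. For shared nucleosomes the shares were 15.5%, 15.5%, 14.8%, 17.6%, 18.9% and 17.8%, and for high-only ones 19.3%, 16.8%, 15.7%, 15.5%, 14.9% and 17.8%. The share of low digest dex centers that were low-only was 13.8% in the farthest step and 20.8% between -100 and -50 bp.

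**Figure D1:**
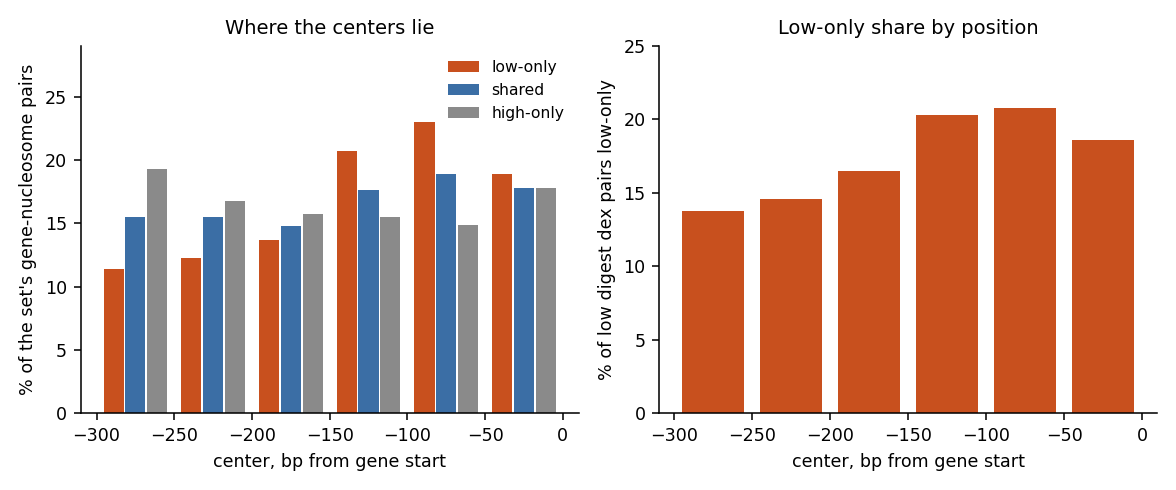
Left, percentage of gene and nucleosome pairs of each set (low-only, shared, high-only) whose center lies in each 50 bp step from -300 bp to the gene start. Right, percentage of all low digest dex pairs in a step that are low-only. The low-only bars are highest between -100 and -50 bp (23%), whereas the high-only bars are highest at -300 to -250 bp (19.3%).

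Beside the low-only position, coverage was higher on the gene side. Coverage was aligned on the nucleosome center with the gene to the right. At 200 bp toward the gene, 35.7% of low-only positions were covered in low digest dex, 55.3% in the list named high digest dex, 48.7% in low digest mock and 63.9% in high digest mock. At 200 bp away from the gene the same lists covered 25.6%, 33.6%, 27.3% and 50.3%. The gene side was thus covered more often than the upstream side in all 4 lists. Shared nucleosomes had the same asymmetry, with 37.3%, 51.8%, 47.4% and 60.1% toward the gene and 30.4%, 39.9%, 33.3% and 58.8% away from it. At the center itself, where the rule fixes the first list at 100% and the second at 0%, low digest mock covered 27.1% and high digest mock 65.2%. For shared nucleosomes the center was covered in 85.5% of cases in the list named high digest dex, 80.5% in low digest mock and 80.4% in high digest mock.

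**Figure D2:**
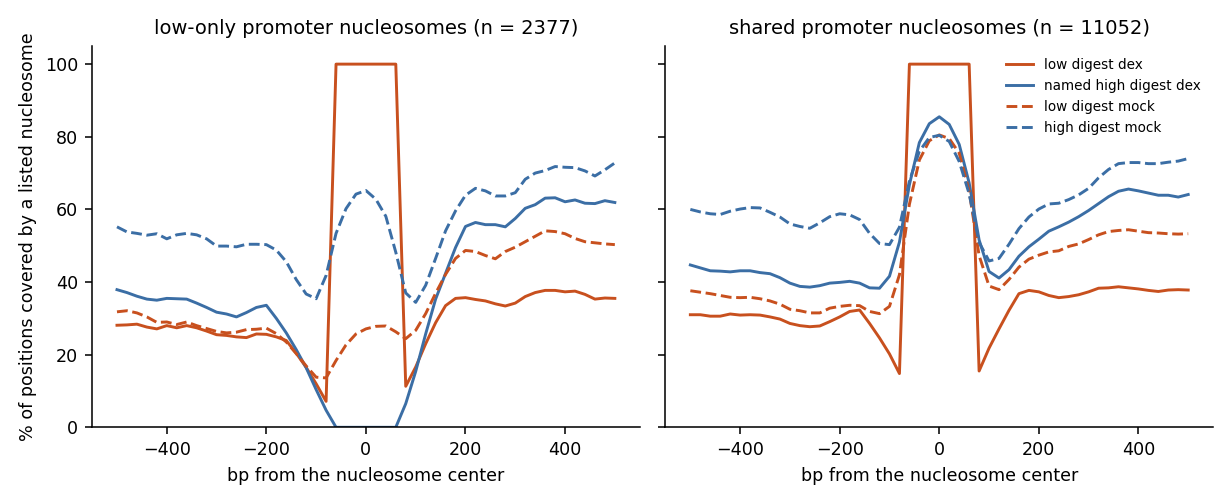
Percentage of positions covered by a listed nucleosome against the distance in bp from the nucleosome center, with positive distances toward the gene, for low-only (left, n = 2377) and shared (right, n = 11052) promoter nucleosomes in each of the 4 lists. At the low-only center the high digest mock line stands at 65.2% and the low digest mock line at 27.1%, while at the shared center both are near 80%.

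Low-only nucleosomes lay on AT-rich DNA, a property the rule did not use. Their median GC content was 33.6% (quartiles 31.4 and 35.7%), against 38.6% (35.7 and 42.1%) for shared and 37.1% (34.3 and 40%) for high-only nucleosomes. It was 36.4% when high digest mock took the place of the list named high digest dex, and 38.6% for the low-only nucleosomes of the mock lists. When the 13429 promoter nucleosomes of low digest dex were put into 5 bins of equal size by GC content, 49.3% of the bin with the lowest GC (23.6 to 34.3%) were low-only, then 21.9%, 10.5% and 4.84%, and 1.9% of the bin with the highest GC (42.1 to 63.6%). Runs of 8 or more adenines or thymines were present in 11.1% of low-only, 7.16% of shared and 10.3% of high-only nucleosomes. Over the whole 300 bp window the median GC content was 31.6% for the 2412 genes, 34.9% for the 9426 genes with only shared nucleosomes and 31.2% for all protein-coding genes. That window overlapped another annotated gene in 29.7% of the 2412 genes, 43% of genes with only shared nucleosomes and 42.7% of high-only genes. Among all protein-coding genes it did so in 31.2%. The part of this overlap in the GC difference was not tested.

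Low-only nucleosomes also ranked lower by occupancy. Their median percentile within low digest dex was 26.9 (quartiles 3.78 and 69.5), against 59 (26.9 and 83) for shared nucleosomes. The low-only share was 25.9% in the lowest bin of 20 percentiles, then 22.6%, 17.3% and 15.3%, and 9.44% in the highest. A weak call in low digest dex and a call that the second list lacks therefore moved together, and the part of occupancy in the result was not tested.

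**Figure D3:**
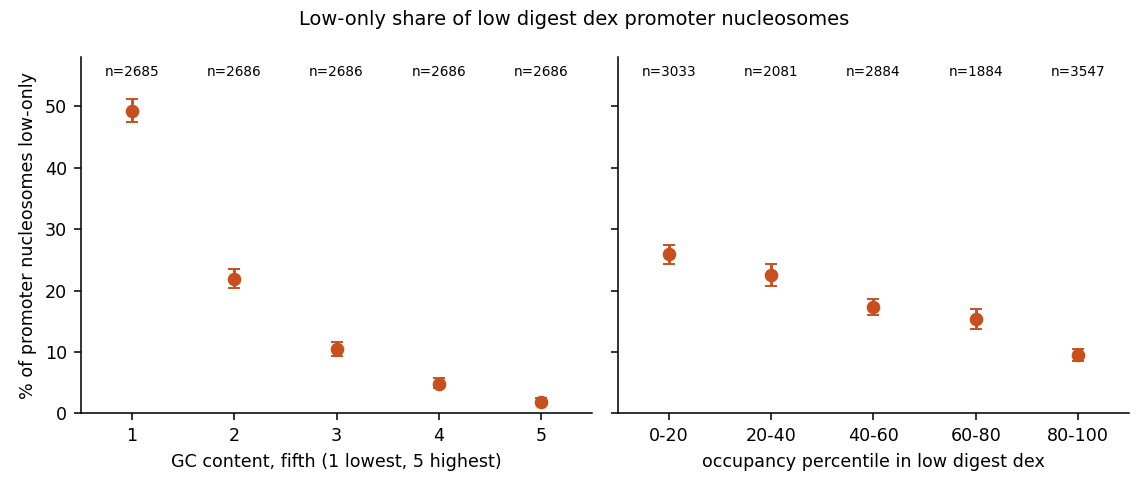
Percentage of low digest dex promoter nucleosomes that are low-only, by 5 bins of GC content (left) and by occupancy percentile within low digest dex (right); points are shares, bars are Wilson 95% intervals and n is the number of nucleosomes. The share falls across the GC bins to 1.9% in the bin of highest GC, against 49.3% in the lowest, and across the occupancy bins to 9.44%, against 25.9%.

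Of the 6 motifs, TATAAA and GGCCCA were more frequent in low-only than in shared nucleosomes. TATAAA was present in 27.4% of low-only, 15.3% of shared and 15.7% of high-only nucleosomes. Within the 5 GC bins, from low to high, it was in 31%, 24.3%, 25.5%, 16.2% and 7.84% of low-only nucleosomes and in 27.7%, 20.6%, 16.4%, 12.8% and 6.07% of shared ones, a smaller gap than without the bins.

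GGCCCA, the site II element known from promoters of ribosomal protein and other growth-related genes, contains mostly G and C and yet was in 16.4% of the AT-rich low-only nucleosomes, 13.2% of shared and 5.57% of high-only ones. Within the GC bins it was in 8.45%, 22.8%, 30.5%, 35.4% and 23.5% of low-only nucleosomes and in 5.66%, 11.2%, 13.9%, 16.5% and 15% of shared ones, so that the low-only share was higher in each of the 5 bins. Among the 246 low-only nucleosomes that were low-only in mock as well, 41.9% (35.9 to 48.1%) held it.

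CACGTG (5.81% of low-only, 8.98% of shared, 3.3% of high-only nucleosomes) and GAGAGA (10.3%, 16.2% and 18.7% in the same order) were less frequent in low-only than in shared nucleosomes over all GC contents. Within the GC bins, from low to high, CACGTG was in 3.17%, 6.96%, 11%, 9.23% and 23.5% of low-only and in 3.97%, 5.82%, 7.36%, 10.3% and 14.2% of shared nucleosomes. GAGAGA was in 7.02%, 13.1%, 16.3%, 16.9% and 13.7% of low-only and in 8.53%, 10.6%, 14.6%, 18.2% and 24.1% of shared ones, so that neither motif kept its direction across the bins. Over all bins, AAACCCTA was in 2.31%, 2.43% and 4.17% of low-only, shared and high-only nucleosomes, and the LFY core CCANTGG in 2.06%, 2.82% and 2%. In the whole promoter window, TATAAA was found for 54.7% of the 2412 genes against 52.9% of all protein-coding genes, GGCCCA for 23.6% against 14.6%, CACGTG for 8.83% against 7.09%, AAACCCTA for 5.35% against 5.21%, GAGAGA for 22.3% against 23.6% and CCANTGG for 3.94% against 3.57%. GGCCCA was as frequent, at 22.3%, in promoters with only shared nucleosomes.

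The mock lists, which the rule did not use, show how far the low-only state was seen without nuclear LFY. Of the 2377 low-only nucleosomes, 660 (27.8%, 26 to 29.6%) were listed in low digest mock, meaning at least 50% of their bases were covered there, against 82.5% of shared nucleosomes. This share rests on the choice of the second list, since it was 68% with high digest mock in place of the list named high digest dex and 61.9% at equal list sizes. Those with no base covered in high digest mock numbered 576 (24.2%, 22.6 to 26%), against 7.25% of shared nucleosomes. Low-only nucleosomes were listed in high digest mock in 66.7% of cases, more often than in low digest mock. In 1152 cases (48.5%) the position was free of low digest mock and listed in high digest mock, the reverse of what the digest names would give, and 8.41% of shared nucleosomes had that pattern. High digest mock is also the longer list, with 482098 intervals against 316733. It had a promoter center in 67.6% of genes against 44.7% for low digest mock. The part of list length in this pattern was not tested. Free of both mock lists were 11.3% of low-only and 0.326% of shared nucleosomes.

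Occupancy moved with the first of these shares. Across the 5 occupancy bins, from low to high, 16.9%, 20.9%, 30.1%, 35.1% and 53.1% of low-only nucleosomes were listed in low digest mock, against 70.3%, 73.3%, 81.3%, 87.3% and 94.2% of shared ones. The share free of high digest mock was 23.1%, 24.3%, 28.1%, 19.8% and 25.1% for low-only and 7.16%, 7.08%, 7%, 7.83% and 7.29% for shared nucleosomes, with no trend along occupancy. By GC bin, 12.2% of low-only nucleosomes of the lowest bin and 90.2% of those of the highest bin (46 of 51) were listed in low digest mock. Shared nucleosomes rose in the same direction, with 51.2% in the lowest bin and 96.1% in the highest.

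**Figure D4:**
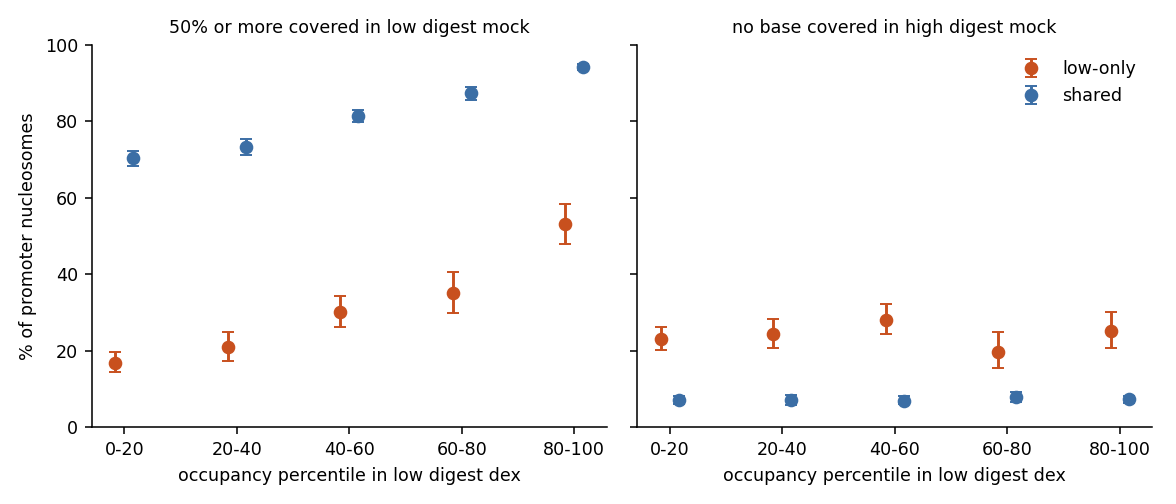
Percentage of low-only and shared low digest dex promoter nucleosomes that are at least 50% covered in low digest mock (left) and that have no base covered in high digest mock (right), by occupancy percentile within low digest dex, with Wilson 95% intervals. In every bin the low-only points are below the shared ones on the left (53.1% against 94.2% in the highest bin) and above them on the right (25.1% against 7.29%).

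The same rule applied to the mock lists gave 1611 genes, or 5.87% of protein-coding genes, and 273 genes met it in both treatments, which is 11.3% of the dex genes and 16.9% of the mock genes. A stricter reading asked for the same nucleosome: low-only in dex, at least 50% covered in low digest mock and free of high digest mock. This held for 246 of the 2377 low-only nucleosomes (10.3%), in 274 genes, or 0.998% of protein-coding genes. The same pattern in the mock lists held for 691 of 11052 shared nucleosomes (6.25%). The 246 nucleosomes had a median GC content of 37.1%, near the 37.1% of high-only and the 38.6% of shared nucleosomes. That is above the 33.6% of all low-only ones. A run of 8 or more adenines or thymines was in 16.7% of the 246.

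With high digest mock in place of the list named high digest dex, 1377 of the 13429 low digest dex promoter nucleosomes (10.3%) were low-only, in place of 2377 (17.7%), and 642 of the 2412 genes (26.6%) were still in the set. The list named high digest dex lacked 17.7% of the promoter nucleosomes of low digest dex and 7.5% of those of low digest mock. High digest mock lacked 10.3% of the promoter nucleosomes of low digest dex and 10.5% of those of low digest mock. Low digest mock, which is named as a low digest list, had no overlapping interval for 19.2% of the low digest dex promoter nucleosomes, a larger share than the list named high digest dex.

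To ask which kinds of genes carried a low-only promoter nucleosome, 45 classes were counted, chosen by the words of the RefSeq product or by symbol. They took in 4913 protein-coding genes (17.9%) and 421 of the 2412 genes (17.5%), so most of the 2412 genes belonged to none. Of the 41 classes with at least 20 genes, the interval of 3 lay above the 8.79% of all protein-coding genes and the interval of 3 lay below it. The 3 above were GRAS factors, glycosyltransferases and glutathione transferases, and the 3 below were F-box proteins, defensin-like peptides and transposon-related reading frames. Genes of a class can lie in tandem and share sequence, and the intervals do not account for looking at 41 classes.

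**Figure D5:**
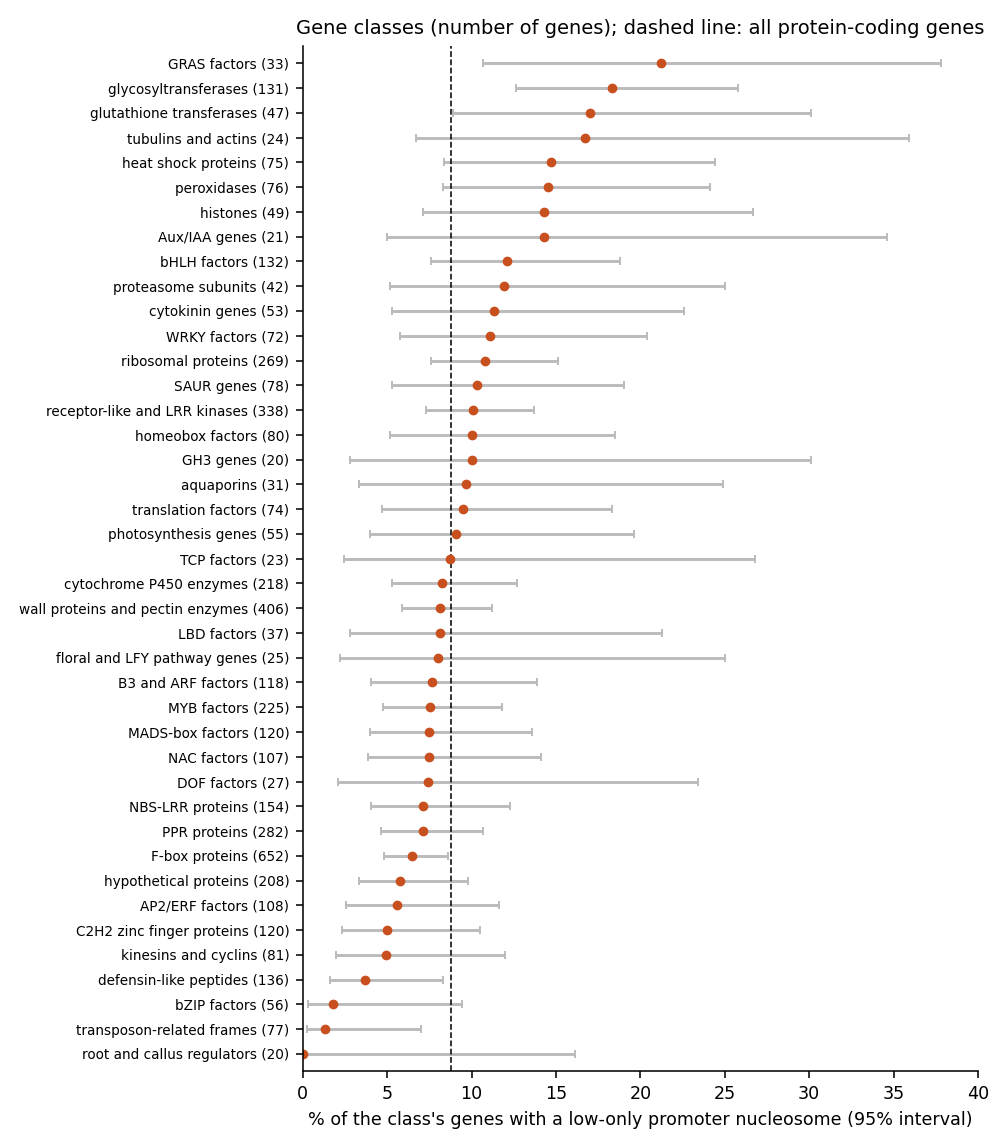
Percentage of the genes of each class with a low-only promoter nucleosome, for the 41 classes of at least 20 genes (number of genes in brackets), with Wilson 95% intervals; the dashed line is the 8.79% of all protein-coding genes. GRAS factors (21.2%) and glycosyltransferases (18.3%) stand to the right of the line with their whole interval, and transposon-related frames (1.3%) to the left.

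Among enzymes of secondary metabolism and detoxification, the UDP-glycosyltransferases, which attach sugars to hormones and plant metabolites, had 24 of 131 genes (18.3%, 12.6 to 25.8%). Of the 70 glycosyltransferase genes with a low digest dex center, 34.3% had a low-only one, against 20.4% over all genes. AT3G46720 (center at -171 bp, occupancy percentile 98.3), UGT72E1 (-112 bp, 96.6), which glucosylates lignin precursors, and AT2G22590 (-124 bp, 94.4) had the highest ranks. Of the 140 bases of each, 0 were covered in low digest mock in all 3, and 30, 130 and 70 in high digest mock. Glycosyltransferases stayed above all genes under all 9 alternatives. Here and for the classes below, these are not independent. All but the exchange for high digest mock and the mock lists reuse both lists of the rule. With high digest mock the class had 9 of 131 (6.87%, against 5.43% of all genes). In the mock lists, which the rule did not use, it had 8 (6.11%, against 5.87%), close to the share of all genes.

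Glutathione transferases, which couple glutathione to toxic compounds, had 8 of 47 genes (17%, 8.89 to 30.1%), and 38.1% of the 21 with a low digest dex center. They were GSTF10, GSTU27, GSTU3, GSTF3, GSTU1, GSTF7, GSTF2 and GSTT3, members of the phi, tau and theta groups. GSTF10, the highest, had its center at -18 bp, with 140 bases covered in low digest mock and 120 in high digest mock, and GSTU27 and GSTU3 had 0 bases in low digest mock and 130 and 110 in high digest mock. No gene of the class was in the set when high digest mock was used (0 of 47, against 5.43% of all genes). The mock lists had none either (0 of 47, against 5.87%). In a class of 47 genes such shares amount to few genes. Peroxidases, which oxidize phenolic compounds in the wall, had 11 of 76 (14.5%, 8.28 to 24.1%), an interval that includes 8.79%. With high digest mock they had 1 of 76, against 5.43% of all genes, and in the mock lists 2 (2.63%, against 5.87%). Cytochrome P450 enzymes, another large oxidative family, had 18 of 218 (8.26%), a share like that of all genes.

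Among transcription factors, the GRAS family had 7 of 33 genes (21.2%, 10.7 to 37.8%), which were HAM2, RGA1, SCL1, SCL5, AT1G07520, AT3G13840 and AT5G66770. HAM2, which maintains shoot meristems, had its nucleosome at -59 bp with an occupancy percentile of 95.7, and low digest mock covered 130 of its bases and high digest mock 97. RGA1, a DELLA repressor of gibberellin responses, had its center at -134 bp with a percentile of 26.9, and 0 of its bases were covered in either mock list. The other 5, SCL1, SCL5, AT1G07520, AT3G13840 and AT5G66770, had a percentile of 3.78, among the lowest ranks of the list. With high digest mock 1 of 33 GRAS genes was in the set (3.03%, against 5.43% of all genes). With only the higher 50% of low digest dex by occupancy the class was no longer above all genes.

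The other large transcription factor families were closer to all genes. The bHLH factors had 16 of 132 genes (12.1%, 7.6 to 18.8%), WRKY factors 8 of 72 (11.1%), homeobox factors 8 of 80 (10%), MYB factors 17 of 225 (7.56%), MADS-box factors 9 of 120 (7.5%) and NAC factors 8 of 107 (7.48%). AP2/ERF factors had 6 of 108 (5.56%) and bZIP factors 1 of 56 (1.79%, 0.316 to 9.45%). The bZIP share stayed below all genes under all 9 alternatives. The AP2/ERF share did so too except at equal list sizes, where it was 27.8% against 27.7% of all genes. In the mock lists bHLH factors had 4 of 132 (3.03%), WRKY factors 2 of 72 (2.78%) and homeobox factors 2 of 80 (2.5%), against 5.87%. MADS-box factors had 2 of 120 (1.67%) there and MYB factors 14 of 225 (6.22%). With high digest mock, bHLH and WRKY factors moved below all genes and NAC factors above. Of the 8 NAC genes, 4 were low-only by the stricter reading, against 274 of all 2412 genes. The other families of this paragraph had 0 such genes each, and all these counts are small. In the mock lists NAC factors had 4 of 107 (3.74%), against 5.87% of all genes. NAC053 had its center at -265 bp with 120 bases covered in low digest mock and 0 in high digest mock, NAC017, a mediator of mitochondrial stress signals, had 120 and 0 bases at -63 bp, and NAC060 had 70 and 0 bases at -22 bp. Other named factors lacked the position in low digest mock and had it in high digest mock: GL2, a homeobox regulator of root hairs and trichomes, had 0 and 140 bases at -94 bp, and WRKY53, a regulator of leaf senescence, 0 and 140 bases at -210 bp.

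Hormone genes matter in explants on callus-inducing medium, which contains auxin and cytokinin. Aux/IAA genes, whose products repress auxin responses, had 3 of 21 (14.3%, 4.98 to 34.6%), SAUR genes 8 of 78 (10.3%) and GH3 genes 2 of 20 (10%). The PIN genes for auxin export and related carriers had 0 of 15 (0 to 20.4%, which includes 8.79%). In the mock lists these classes had, in that order, 1 (4.76%), 0, 2 (10%) and 0 genes, against 5.87% of all genes. With high digest mock, SAUR and GH3 genes were below all genes and Aux/IAA genes above. IAA28 had 2 low-only nucleosomes, at -92 bp (percentile 92.8) and -237 bp (percentile 69.5), with 0 bases covered in low digest mock for both and 90 and 140 in high digest mock. AXR3 had its nucleosome at -296 bp, with 0 and 50 bases in the mock lists, and IAA18 at -169 bp, with 0 and 0.

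Cytokinin genes had 6 of 53 (11.3%, 5.29 to 22.6%), an interval that includes 8.79%. They were IPT8 for synthesis, HK3 for perception, ARR4 and ARR11 for response, and CKX4 and CKX5 for breakdown. HK3, a histidine kinase that binds cytokinin, had its center at -127 bp, 320 bp from the nearest interval of the list named high digest dex, with 130 bases covered in low digest mock and 0 in high digest mock. CKX5 at -217 bp had 0 and 140 bases and IPT8 at -149 bp had 0 and 135. HK3 was thus the only one of the 6 that met the stricter reading.

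Among genes that most cells use, histone genes had 7 of 49 (14.3%, 7.1 to 26.7%), tubulins and actins 4 of 24 (16.7%, 6.68 to 35.9%), heat shock proteins 11 of 75 (14.7%, 8.39 to 24.4%), proteasome subunits 5 of 42 (11.9%, 5.19 to 25%), translation factors 7 of 74 (9.46%, 4.66 to 18.3%) and ribosomal proteins 29 of 269 (10.8%, 7.61 to 15.1%). All of these intervals include 8.79%. With high digest mock, the ribosomal proteins had 35 of 269 (13%), the histones 6 of 49 (12.2%) the tubulins and actins 6 of 24 (25%), the proteasome subunits 3 of 42 (7.14%), the heat shock proteins 4 of 75 (5.33%) and the translation factors 2 of 74 (2.7%), against 5.43% of all genes. In the mock lists the same classes had, in that order, 28 (10.4%), 8 (16.3%), 5 (20.8%), 3 (7.14%), 5 (6.67%) and 7 (9.46%), against 5.87%. Of these 6 classes, tubulins and actins stayed above all genes under all 9 alternatives, ribosomal proteins, histones and heat shock proteins under 8, proteasome subunits under 7 and translation factors under 4.

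By gene, TUA2, an alpha-tubulin, had its nucleosome at -44 bp with 100 bases covered in low digest mock and 0 in high digest mock, and TUB8, a beta-tubulin, had 120 and 0 at -51 bp. TUB4 had 0 and 125 at -127 bp, and the vegetative actin ACT8 had 130 in both at -78 bp. RPN1A, a subunit of the 26S proteasome, had 130 and 0 bases at -40 bp. The histone gene AT1G07820 and the ribosomal protein gene AT1G07830 are divergent and share a nucleosome, centered at -26 bp and -34 bp from their starts, with 130 bases covered in low digest mock and 0 in high digest mock. The small heat shock protein gene AT2G29500 shares its nucleosome with AT2G29510, at -122 bp and -195 bp, with 80 and 0 bases, 230 bp from the nearest interval of the list named high digest dex.

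Pentatricopeptide repeat (PPR) proteins, which process RNA in organelles, had 20 of 282 genes (7.09%, 4.64 to 10.7%), an interval that includes 8.79%. They had 22 (7.8%, against 5.43% of all genes) with high digest mock and 31 (11%, against 5.87%) in the mock lists. AT5G46680 at -91 bp had 120 bases in low digest mock and 0 in high digest mock, and EMB3131 at -78 bp had 140 and 0. Kinesins and cyclins, of the cell cycle, had 4 of 81 (4.94%, against 8.79% of all genes) in dex and 10 of 81 (12.3%, against 5.87%) in the mock lists.

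The 3 classes whose interval lay below all genes also had low digest dex centers in fewer promoters, with 14% of defensin-like, 27.3% of transposon-related and 37.4% of F-box genes against 43.1% of all genes. Defensin-like peptides, small secreted proteins of defense and pollination, had 5 of 136 (3.68%, 1.58 to 8.32%), with a center in 19 of 136 promoters. Transposon-related frames had 1 of 77 (1.3%, 0.23 to 7%), MUG3, with a center in 21 promoters. F-box proteins, which select targets for breakdown, had 42 of 652 (6.44%, 4.8 to 8.59%), and 17.2% of the 244 with a center. F-box and defensin-like genes stayed below all genes under all 9 alternatives, transposon-related frames under 8. The defensin-like share among promoters with a center was 26.3% (11.8 to 48.8%), above the 20.4% of all genes.

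Of 25 floral and LFY pathway genes, 2 had a low-only nucleosome (8%, against 8.79% of all genes), 5 had shared ones only and 18 had no low digest dex center in the promoter. A center was thus present in 28% of them, against 43.1% of all genes. LFY itself had its low-only nucleosome at -231 bp, with an occupancy percentile of 26.9. Low digest mock covered 0 of its 140 bases and high digest mock 135. SOC1, a MADS-box factor that promotes flowering, had its nucleosome at -17 bp with a percentile of 3.78, and low digest mock covered 0 of its bases and high digest mock 140. Neither was low-only with high digest mock in place of the list named high digest dex, where the class had 0 of 25, against 5.43% of all genes. In the mock lists the class had 2 of 25 (8%, against 5.87% of all genes).

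The 5 loci that the study examined singly were not low-only. AP1 had a shared nucleosome at -163 bp, and its window had 140 bases covered in low digest dex, 203 in the list named high digest dex, 213 in low digest mock and 203 in high digest mock. ACT7, the actin gene used as a control, had 2 shared nucleosomes, with 201, 140, 231 and 140 bases in the same order of lists. RAX1 had no covered base in any of the 4 lists, LSH2 had 0, 0, 0 and 194 bases, and ACR7 had 0, 61, 241 and 0. These values are for the whole 300 bp promoter and were not taken at the sites bound by LFY. In AP1, however, the shared nucleosome printed above holds a match to the LFY core. That match lies in the LFY binding site that the study tested.

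No root and callus regulator was low-only (0 of 20, interval 0 to 16.1%, which includes the 8.79% of all genes), among them PLT1, WOX5, SCR and WIND1. A low digest dex center was present in 3 of the 20 promoters (15%, against 43.1% of all genes). Of 7 chromatin remodeling and linker histone genes, 2 were low-only (28.6%, 8.22 to 64.1%, which includes the 8.79% of all genes) and 5 shared. All 7 had a low digest dex center, against 43.1% of all genes. In the mock lists 3 of the 7 were low-only (42.9%, against 5.87% of all genes). SYD, a SWI/SNF ATPase, had a low-only nucleosome at -91 bp and a shared one at -236 bp, and its window had 274 bases covered in low digest dex, 101 in the list named high digest dex, 111 in low digest mock and 211 in high digest mock. SWI3A, a core subunit of the same complexes, had its low-only nucleosome at -147 bp, and its window had 208, 41, 98 and 13 bases in the same order.

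The genes whose low-only nucleosomes ranked highest by occupancy were UBQ10, CRT1a, PGIP1, NRPD4, AT2G24040, AT4G32020, AT2G18876, SS3 and AT1G30690, with percentiles of 99.3 to 100. UBQ10, a polyubiquitin gene, had 2 low-only nucleosomes, both at a percentile of 100. The one at -25 bp had 130 bases covered in low digest mock and 110 in high digest mock, and the one at -215 bp had 110 and 0. CRT1a, which encodes a calreticulin of the endoplasmic reticulum, had 140 and 130 bases at -83 bp, and PGIP1, an inhibitor of fungal pectin-degrading enzymes, had 140 and 50 at -128 bp. NRPD4, a subunit of the plant RNA polymerases of gene silencing, had 0 and 30 at -151 bp. Of these 9 genes, 8 had at least 130 bases covered in low digest mock at 1 nucleosome, and UBQ10 alone had 1 that met the stricter reading.

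Of the genes that met the stricter reading, those of highest occupancy after UBQ10 were AT4G32900 and AT4G32910 (a divergent pair), AT2G20110, RAP2.7, emb1138, AT1G07820 and AT1G07830, LOS1, SCI1, AT4G21660 and AT4G25020, with percentiles of 97.3 to 98.6. By definition each had at least 50% of its bases in low digest mock and 0 in high digest mock. LOS1, translation elongation factor 2, had 110 bases in low digest mock at -100 bp, and emb1138, a chloroplast RNA helicase, had 100 at -49 bp. RAP2.7, an AP2-type repressor of flowering that the annotation calls an uncharacterized protein and the AP2/ERF class above therefore does not hold, had 130 at -68 bp. AT4G21660 and AT4G25020, annotated as a spliceosome-associated and a G-patch protein, had 135 at 0 bp and 130 at -77 bp.

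Over all 2412 genes, 107 were kept under every alternative within dex and also with high digest mock (8 alternatives), and 49 of these were members in the mock lists as well. Of the alternatives, 3 can only add genes and kept all 2412 by construction: under 50% covered, equal list sizes and the 500 bp window. UBQ10, LOS1, emb1138, HK3, AT2G29500, AT2G29510, AT5G46680, EMB3131 and AT2G16250, a leucine-rich repeat kinase gene with 135 and 0 bases in low and high digest mock, were among the 49.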

How the data were processed

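MNase-seq libraries, 8 in all with 2 per list, are represented by 4 lists of 140 bp nucleosome intervals that are labelled as pooled. The authors mapped read pairs to TAIR10 with Bowtie 1.2.2, with Picard 2.9.4 also named in the submitters' processing notes, and called nucleosomes with DANPOS, a caller that smooths coverage and tests its summits. Replicates were merged ahead of the call for low digest dex only; how the calls of the other 3 conditions were combined is not given in the sources used here. The deposited value of each interval is an occupancy signal whose scaling between lists is not given in the sources used here, so it served only as a percentile within low digest dex. No per-sample column was left unmapped (0).

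Starts were read as counting from 0 and printed from 1. Gene models and sequence came from RefSeq TAIR10.1, whose nuclear chromosomes have TAIR10's lengths. Promoters ran from 300 bp upstream to the gene start, overlap meant at least 1 bp and listed at least 50% of bases. Bins of GC and occupancy, gene classes by product words and the 9 alternatives are as named in the text. Named genes were those of the 10 low-only nucleosomes highest by occupancy and of the 10 highest that were also low-only in mock. Up to 3 genes per class, the regulator lists and the 5 loci studied singly were named too. Other class members named (the remaining GRAS, glutathione transferase, cytokinin and tubulin genes) were listed to complete a class after their values were seen. Members and lists were chosen with earlier results of these data known, and the class word patterns, with hypothetical proteins and PIN genes, were set after the lists were seen. The rule was tested on simulated data. Software was Python 3.11.15, NumPy 2.4.6, pandas 2.3.3, SciPy 1.17.1 and Matplotlib 3.10.9.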

Additional observations from a re-analysis of the deposited data

Results flagged for a closer look

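Outside the nuclear promoters, the low digest dex list held 590 intervals on the mitochondrial chromosome, a signal that no comparison above used. The list named high digest dex held 551, low digest mock 587 and high digest mock 555. None of the 2377 low-only promoter nucleosomes carried a stretch of 31 bases also found in an organelle genome, and 23 of 11052 shared ones did.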

How the results depend on the processing

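No paired analysis was possible because each condition was deposited as 1 pooled list, so replicates could be neither paired nor left out in turn. The values reported were 2412 genes, 20.4% of genes with a low digest center, 27.8% listed in low digest mock, 24.2% free of high digest mock, 4315 high-only genes and a median GC of 33.6%. In that order of measures, calling a nucleosome low-only when under 50% of it was covered gave 3739 genes, 31.6%, 36.8%, 19.1% and, for GC, 34.3%. Asking for a window free of the second list gave 1439 genes, 12.2% and 2702 high-only genes. Equal list sizes gave 7597 genes, 64.2%, 61.9%, 15.9%, 1446 high-only genes and 35.7%, so that low-only genes then outnumbered high-only ones. The higher 50% of low digest dex gave 1060 genes, 14.4%, 38.7% and a GC of 34.3%. A 500 bp window gave 21.2%, 24.3%, 19.3% and 7162 high-only genes, and a 200 bp window 31.8% and 28% for the mock shares. Windows with no other gene gave 24%, 25.4% and 2474 high-only genes. With high digest mock as the second list there were 1491 genes, 12.6%, 68%, 9268 high-only genes and a GC of 36.4%. The mock lists gave 13.1%, 8787 high-only genes and a GC of 38.6%, and the cause of the difference in GC was not tested. Of 41 classes, 11 stayed on their side of all genes or level with them under all 9 alternatives and 30 did not. The level case was that of AP2/ERF factors at equal list sizes (27.8% against 27.7%). Of 134 named genes, 40 stayed with high digest mock and 25 in the mock lists, and 96 had a window with no other gene. Among named nucleosomes wholly upstream of their gene, those of SS3, PGIP1, NAC053 and SCI1 overlapped another annotated gene. Depth is unknown, so an interval missing from a list may be a nucleosome below its call threshold.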
